A study of Arabidopsis thaliana with 6 samples.

Results

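WRKY proteins are plant transcription factors named for a conserved run of amino acids in their DNA-binding domain, followed by a zinc finger. They bind the W box, a short DNA element whose core reads TTGACC or TTGACT. Members of group I typically carry a pair of these domains, those of group II (subgroups IIa to IIe) a single one, and those of group III a single one with a different zinc finger. Many members act in salicylic acid defence, leaf senescence, and the response to phosphate or oxidative stress, several of them downstream of MAP kinase cascades, and VQ motif proteins bind them as partners. The 60 WRKY genes described here, from WRKY1 to WRKY75, were taken from the 33602 genes of the deposited table by their locus codes. They were 14 genes of group I, 3 of IIa, 7 of IIb, 13 of IIc, 6 of IId, 8 of IIe and 9 of group III, by the published classification. The TAIR10.1 annotation names 72 genes with WRKY in the product, 57 of them among the 60, and 15 others are not analysed here.

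RNA-seq libraries were made from whole seedlings of Arabidopsis thaliana, Columbia ecotype, 12 days old, grown on agar plates with 0.5% sucrose and a nitrogen-free salt mixture. The plates received either 5 mM ammonium nitrate or 5 mM glutamate as the only nitrogen source, with 3 libraries for each. Because ammonium nitrate holds 2 nitrogen atoms, its plates supplied 10 mM nitrogen against 5 mM, so the source and the amount of nitrogen cannot be told apart. The libraries held 49520237 to 63424574 reads in genes. Levels are in RPKM, reads per kilobase of gene scaled to library size, which can be compared between genes. The log2 fold changes are of log2(RPKM + 1), glutamate minus ammonium nitrate, with the standard error (SE), and understate the change of genes with low values. A gene was called where limma's moderated test gave an adjusted p of at most 0.05 over the 20032 genes averaging 1 RPKM or more. Nothing in the labels ties the libraries to separate cultures, so the p-values speak of the spread among these 6 samples, which may be technical. All 8 root markers and all 8 shoot markers were above 1 RPKM in all 6 libraries. The summed shoot markers were at 16777 to 17866 RPKM on ammonium nitrate and 8802 to 9864 RPKM on glutamate, with 7 of 8 called lower and 1 higher, and 5 of 8 root markers were called higher and 1 lower. The summed root markers were nevertheless lower on glutamate, at 1623 to 1776 RPKM against 2209 to 2675 RPKM. Most of this sum was BGLU23, the root marker called lower, at a mean of 2261 RPKM on ammonium nitrate and 1538 RPKM on glutamate. RBCS1A likewise made up most of the shoot sum, at 14599 and 7644 RPKM. In these whole-seedling samples fewer cells of a type and less RNA per cell cannot be told apart, and the part of tissue make-up in the WRKY values was not tested.

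The comparison asked how the family responds when glutamate replaces ammonium nitrate. Most WRKY genes were higher on glutamate, with every tested member of group III and subgroup IIa among them. Of the 60 genes, 55 reached the level needed for the test, and 42 of these were called higher, 5 lower and 8 were not called. Over all genes tested, 35.0% were called higher and 36.8% lower, against 76.4% and 9.09% of the tested WRKY genes. At least 2-fold changes, a log2 fold change of 1 or more, were reached by 23 WRKY genes upward and by 1 downward, where all genes tested had 9.52% and 5.54%. The median log2 fold change was 0.66 for the tested WRKY genes and -0.02 for all genes tested. The glutamate values lay all above the ammonium nitrate values for 42 tested WRKY genes and all below for 5, against 36.9% and 39.2% of all genes tested. WRKY38, WRKY41, WRKY55 and WRKY62 of group III and WRKY58 of group I had an ammonium nitrate mean under 1 RPKM. They entered the test through their glutamate level, so their means could only be higher on glutamate. The other 50 tested genes counted 37 higher and 5 lower. Among these 5, WRKY49 of subgroup IIc had a glutamate mean of 0.425 RPKM and entered through its ammonium nitrate level. Its mean could only be lower on glutamate. Scaled to equal totals per library, 44 of 56 tested WRKY genes were called higher and 4 lower. This scaling also moved all genes tested upward, with 8452 of 20034 called higher and 5989 lower, against 7013 and 7377 of 20032 without it.

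**Figure D1:**
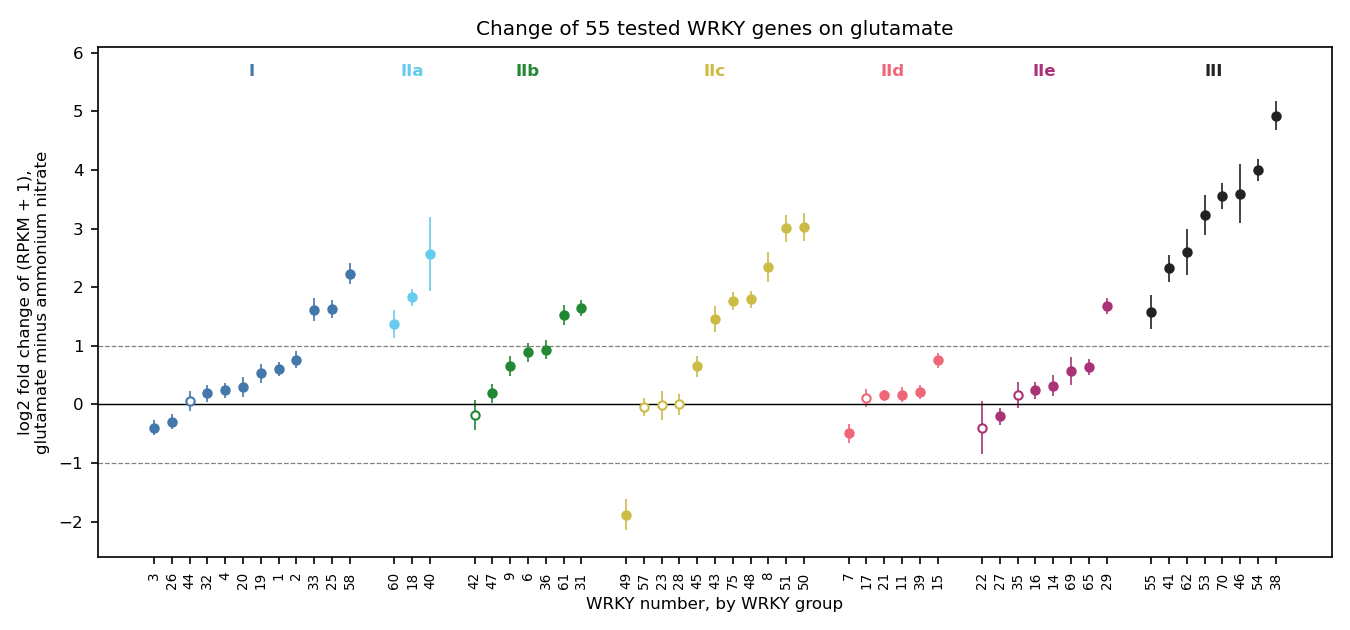
Each point is 1 of the 55 tested WRKY genes, numbered on the x axis and coloured by WRKY group, and the y axis is the log2 fold change of (RPKM + 1) with its 95% confidence interval from limma. Filled points passed the test and open points did not, and dashed lines mark 2-fold. All 8 tested group III genes lie above 1, and WRKY49 of subgroup IIc is the 1 point below -1.

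The summed level of the 60 genes was 851, 835 and 819 RPKM in the ammonium nitrate libraries and 1856, 1770 and 1841 RPKM in the glutamate libraries. It was thus 2.18-fold higher on glutamate, with no overlap (two-sided p = 0.1 by exact permutation, where 3 against 3 can give no smaller value). Group III genes made up 3.09% to 3.98% of this sum on ammonium nitrate and 21.7% to 24.3% on glutamate. WRKY15 of subgroup IId led the family in ammonium nitrate replicates 1 and 3 and WRKY45 of subgroup IIc in replicate 2, and in every glutamate library WRKY70 led. On ammonium nitrate the first places by mean were WRKY15 at 81.2 RPKM, WRKY45 at 71.0 RPKM and WRKY65 at 69.7 RPKM, and the latter pair overlapped between libraries. On glutamate WRKY70, at 260 RPKM, was followed by WRKY15 at 138 RPKM, WRKY45 at 112 RPKM and WRKY65 at 109 RPKM, the last 2 overlapping again. Of the 22 members with a mean of 20 RPKM or more over all libraries, 19 rose and 2 fell. Of the 22 between 5 and 20 RPKM, 18 rose and 2 fell, and of the 11 between 1 and 5 RPKM, 5 rose and 1 fell. Among all genes of these 3 bands, 36.3%, 35.0% and 32.9% rose, and 42.8%, 35.4% and 29.6% fell. The mean that sets the band includes the glutamate libraries. WRKY41, WRKY55, WRKY58 and WRKY62, which rose, are in the lowest band only through their glutamate level, and WRKY38 is in the middle band through its own. WRKY49, which fell, is in the lowest band only through its ammonium nitrate level.

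**Figure D2:**
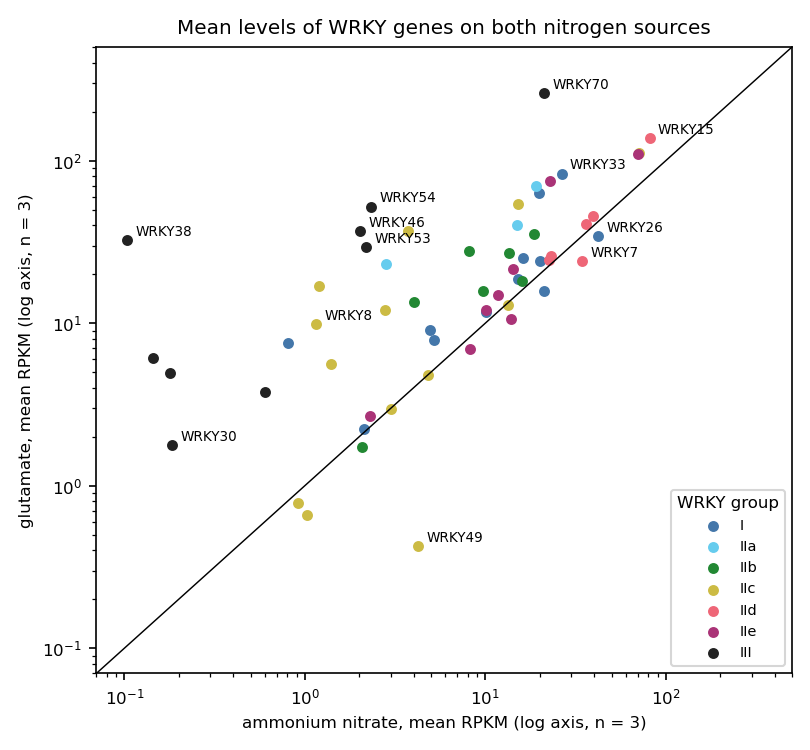
Mean RPKM over 3 libraries on ammonium nitrate (x, log axis) and on glutamate (y, log axis) for the WRKY genes, coloured by WRKY group, with the line of equal level. WRKY10 and WRKY34, at 0 to 2 reads in all, are not drawn. Group III genes lie far above the line, WRKY38 at 0.104 and 32.5 RPKM, and WRKY49 lies far below it at 4.26 and 0.425 RPKM.

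Group III held the 5 largest rises of the family on the log2 scale. All 8 tested members rose, by log2 fold changes of 1.58 to 4.92 and a median of 3.40. Of these, WRKY38, WRKY41, WRKY55 and WRKY62 entered the test through their glutamate level and could only be higher. WRKY46, WRKY53, WRKY54 and WRKY70, above 1 RPKM on both nitrogen sources, rose by log2 fold changes of 3.24 to 3.99. WRKY70 (AT3G56400), a regulator at the node of salicylic acid and jasmonate signalling that also restrains leaf senescence, stood at 25.0, 19.2 and 19.5 RPKM on ammonium nitrate and at 271, 243 and 264 RPKM on glutamate. Its groups did not overlap, and the ratio of means was 12.2-fold (log2 fold change 3.56 ± 0.10 SE, limma adjusted p = 6.3e-08). WRKY54 (AT2G40750), its close relative with a shared role in salicylic acid signalling and senescence, stood at 2.45, 1.98 and 2.59 RPKM on ammonium nitrate and at 54.8, 49.0 and 52.5 RPKM on glutamate. This was a 22.3-fold rise, with all glutamate values above all ammonium nitrate values (log2 fold change 3.99 ± 0.08 SE, adjusted p = 2.3e-08). With the larger ratio, WRKY54 still lay below WRKY70 in every library. WRKY38 (AT5G22570) and WRKY62 (AT5G01900) encode related factors that respond to salicylic acid and restrain basal defence. WRKY38 had 12, 2 and 0 reads in the ammonium nitrate libraries (the deposited values add 0.5 read) and 1808, 1739 and 2386 reads in the glutamate libraries. Its level went from 0.104 ± 0.128 to 32.5 ± 3.35 RPKM (SD, n = 3), the largest log2 fold change of the family at 4.92 ± 0.11 (SE, adjusted p = 2.7e-08). The ratio of means was 314-fold and became 1051-fold without ammonium nitrate replicate 1, so its size rests on a few reads. WRKY62 went from 0.145 ± 0.0898 to 6.09 ± 1.64 RPKM (SD, n = 3), a ratio of 42.0-fold, or 65.5-fold without ammonium nitrate replicate 2.

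WRKY46 (AT2G46400) and WRKY53 (AT4G23810), which act in basal defence beside WRKY70, rose with a wider spread. WRKY53, a promoter of leaf senescence, stood at 2.55, 1.90 and 2.08 RPKM on ammonium nitrate and at 32.8, 22.4 and 32.7 RPKM on glutamate, a 13.5-fold rise. WRKY46 stood at 2.29, 1.74 and 2.05 RPKM and at 44.3, 23.5 and 42.8 RPKM, an 18.2-fold rise (log2 fold change 3.60 ± 0.22 SE, adjusted p = 2.5e-06). In both genes glutamate replicate 2 was the lowest of its group and still above every ammonium nitrate library. WRKY41 (AT4G11070), a relative of WRKY53, rose from 0.178 ± 0.0388 to 4.90 ± 0.53 RPKM and WRKY55 (AT2G40740), a senescence and defence regulator, from 0.598 ± 0.234 to 3.76 ± 0.413 RPKM (SD, n = 3). WRKY30 (AT5G24110), linked to oxidative stress, missed the level needed for the test, with 0.183 ± 0.0365 RPKM on ammonium nitrate and 1.78 ± 0.326 RPKM on glutamate (SD, n = 3), and its groups did not overlap. The gene models of WRKY41 and WRKY53 overlap a gene on the opposite strand over 30.5% and 21.1% of their span. Such overlaps exceed 10% of the span for 5 members in all. The others are WRKY29 (14.5%), WRKY33 (10.7%, a long noncoding RNA gene) and WRKY69. Without strand, reads there cannot be assigned to 1 gene, and the strand setting of the counting is not stated in the labels. The neighbours of WRKY41 and WRKY53 were at 8.08 and 16.5 RPKM on ammonium nitrate and at 6.05 and 14.6 RPKM on glutamate. The part of such reads in the WRKY values was not tested.

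**Figure D3:**
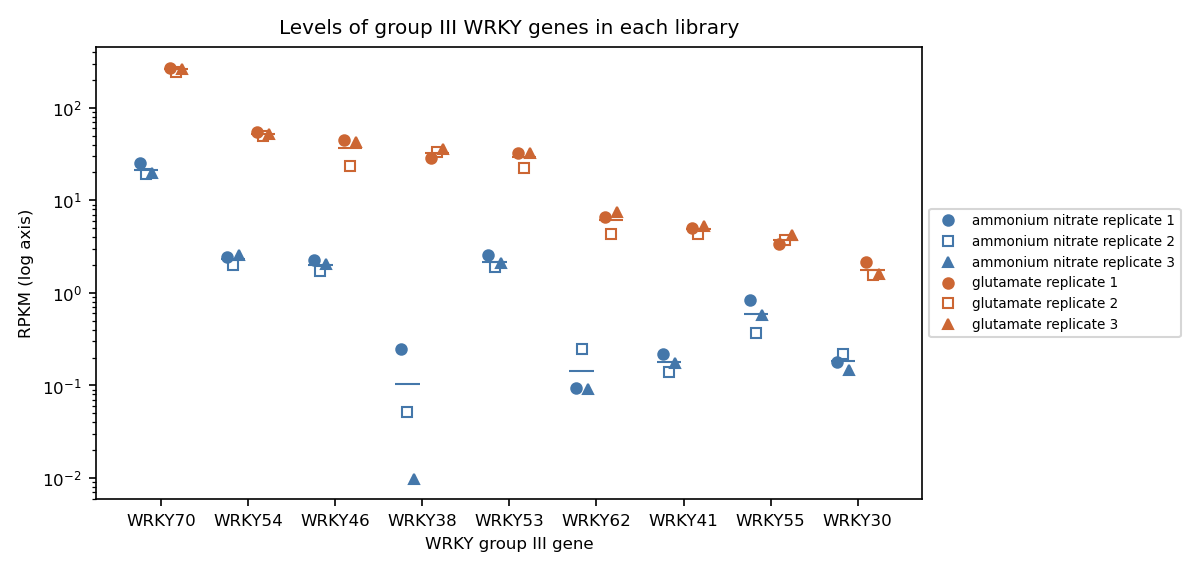
RPKM (log axis) of the 9 group III genes in each of the 6 libraries, with symbols for the replicates and short lines for the group means. Every glutamate value lies above every ammonium nitrate value of the same gene, and glutamate replicate 2 (open squares) is the lowest glutamate value for 7 of the 9 genes, all but WRKY38 and WRKY55.

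W boxes were looked for in the 250 bases before the annotated gene start, on both strands, as the letters TTGACC or TTGACT. They were present for 21 of the 60 WRKY genes, or 35.0%, against 28.4% of 27443 protein-coding genes, and 2 or more were present for 16.7% against 6.18%. In the 1000 bases before the start, 80.0% of the WRKY genes and 67.3% of all genes held at least 1. In group III, 4 of 9 members held 2 or more within 250 bases, namely WRKY30, WRKY41, WRKY53 and WRKY62. None was found there for WRKY38, WRKY54, WRKY46 and WRKY70, which had the 4 largest log2 fold changes of the family. Of the 23 WRKY genes that rose at least 2-fold, 8 held a W box within 250 bases, as did 8 of the 19 that rose less and 3 of the 13 that fell or were not called. These are matches of letters, and no binding was measured. The windows of the 4 group III genes with W boxes are shown so that the elements can be seen in place, read 5′ to 3′ toward the gene from the RefSeq TAIR10.1 assembly, with W boxes of either strand in capitals. They lie at chr5:8154711-8154960 (minus strand), chr4:6758848-6759097 (plus strand), chr4:12393983-12394232 (minus strand) and chr5:352096-352345 (minus strand), in the same order.
WRKY30: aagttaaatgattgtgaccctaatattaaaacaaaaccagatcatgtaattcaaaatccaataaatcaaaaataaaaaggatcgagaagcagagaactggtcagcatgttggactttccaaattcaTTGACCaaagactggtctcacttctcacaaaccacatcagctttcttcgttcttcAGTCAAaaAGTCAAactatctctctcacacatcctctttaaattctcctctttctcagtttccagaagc
WRKY41: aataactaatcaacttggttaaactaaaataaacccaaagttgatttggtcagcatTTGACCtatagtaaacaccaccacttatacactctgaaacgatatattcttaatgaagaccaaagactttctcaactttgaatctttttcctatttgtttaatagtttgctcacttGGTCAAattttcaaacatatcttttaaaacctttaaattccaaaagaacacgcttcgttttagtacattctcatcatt
WRKY53: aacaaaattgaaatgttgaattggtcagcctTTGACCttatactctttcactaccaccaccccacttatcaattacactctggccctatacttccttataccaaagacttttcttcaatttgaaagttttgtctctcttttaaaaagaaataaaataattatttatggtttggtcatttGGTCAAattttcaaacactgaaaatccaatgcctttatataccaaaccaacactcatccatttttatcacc
WRKY62: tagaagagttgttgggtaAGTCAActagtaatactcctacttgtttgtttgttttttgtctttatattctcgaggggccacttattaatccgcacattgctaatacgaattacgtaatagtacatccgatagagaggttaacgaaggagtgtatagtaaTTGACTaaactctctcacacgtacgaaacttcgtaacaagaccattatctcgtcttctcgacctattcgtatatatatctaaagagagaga

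Counted from the gene start, the W boxes of WRKY41 began at positions -194 and -78 and those of WRKY53 at -219 and -71, in both genes first as TTGACC and then as its reverse complement. Around the second W box both windows hold the same 19 letters, ttGGTCAAattttcaaaca, the longest run shared by any of the 36 pairs of group III windows. The other 35 pairs shared runs of 7 to 12 letters. Both genes lie on chromosome 4. WRKY41 was much the lower of the pair in all 6 libraries. For contrast, the windows of the 3 members with the largest rises hold neither W box word. Nor do those of WRKY7 (AT4G24240), WRKY3 (AT2G03340) and WRKY27, which fell, while that of WRKY26, which also fell, holds 1. The first 3 lie at chr5:7496991-7497240 (minus strand), chr2:17002529-17002778 (minus strand) and chr2:19044956-19045205 (minus strand), in the same order.
WRKY38: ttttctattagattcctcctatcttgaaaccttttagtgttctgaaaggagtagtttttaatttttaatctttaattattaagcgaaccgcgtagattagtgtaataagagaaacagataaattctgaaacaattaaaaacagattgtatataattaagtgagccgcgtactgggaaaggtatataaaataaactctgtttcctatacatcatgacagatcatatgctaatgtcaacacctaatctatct
WRKY54: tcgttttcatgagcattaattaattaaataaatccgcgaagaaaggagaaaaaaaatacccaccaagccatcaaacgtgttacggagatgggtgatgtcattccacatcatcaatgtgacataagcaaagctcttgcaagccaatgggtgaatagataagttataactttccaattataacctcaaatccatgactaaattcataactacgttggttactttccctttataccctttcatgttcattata
WRKY46: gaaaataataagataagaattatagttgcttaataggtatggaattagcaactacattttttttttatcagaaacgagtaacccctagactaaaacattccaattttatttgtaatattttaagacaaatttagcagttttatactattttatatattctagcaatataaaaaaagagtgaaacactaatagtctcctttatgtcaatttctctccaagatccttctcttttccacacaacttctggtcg

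Subgroup IIa holds WRKY18 (AT4G31800), WRKY40 (AT1G80840) and WRKY60 (AT2G25000), whose proteins bind each other and restrain both defence and abscisic acid responses. All 3 rose. WRKY18 stood at 20.4, 17.1 and 19.7 RPKM on ammonium nitrate and at 70.7, 69.1 and 70.1 RPKM on glutamate, a 3.67-fold rise (log2 fold change 1.83 ± 0.07 SE, adjusted p = 2.3e-07). The glutamate libraries lay close together and far above the others. WRKY60 rose from 14.9 ± 2.05 to 40.1 ± 3.46 RPKM (SD, n = 3), or 2.70-fold. WRKY40 stood at 2.97, 2.60 and 2.88 RPKM on ammonium nitrate and at 29.6, 12.5 and 27.0 RPKM on glutamate, an 8.17-fold rise (log2 fold change 2.57 ± 0.27 SE, adjusted p = 5.5e-05). Glutamate replicate 2 was at 0.443 of the mean of the other glutamate libraries, and without it the rise was 10.03-fold. None of the 3 had a W box within 250 bases of the gene start, and all had at least 1 within 1000 bases.

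In glutamate replicate 2 a further set of genes was low. The values of 5 WRKY genes were at least 0.5 lower on the log2 scale than the mean of the other glutamate libraries; these were WRKY40, WRKY46, WRKY22 (AT4G01250), WRKY62 and WRKY53, named after their values were seen. That is 5 of 55 tested WRKY genes, against 1.14% of all genes tested in that library. The median of the tested WRKY genes there was -0.0029 on the same scale. In the ammonium nitrate libraries 0 WRKY genes were lower or higher by that much. Of all genes tested, 0.424% to 1.25% were lower there and 0.614% to 0.938% higher. Glutamate replicate 1 had 1 WRKY gene higher by that much, against 0.854% of all genes tested. ERF109, a stress-responsive factor described as bound by WRKY40 and named here after its values were seen, was at 6.63, 0.145 and 5.77 RPKM in glutamate replicates 1, 2 and 3.

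In group I, 9 of 12 tested members rose, 2 fell and 1 was not called, with a median log2 fold change of 0.41. WRKY33 (AT2G38470), which drives camalexin synthesis and resistance to necrotrophic fungi, stood at 29.6, 24.7 and 25.1 RPKM on ammonium nitrate and at 89.0, 76.6 and 84.1 RPKM on glutamate. This was a 3.14-fold rise with no overlap (log2 fold change 1.62 ± 0.08 SE, adjusted p = 1.1e-06). WRKY25 (AT2G30250), which acts with WRKY26 (AT5G07100) and WRKY33 in heat tolerance, rose 3.19-fold, from 19.8 ± 1.71 to 63.2 ± 2.38 RPKM (SD, n = 3). WRKY26 instead fell, from 41.2, 45.5 and 40.3 RPKM to 33.4, 34.5 and 34.9 RPKM (log2 fold change -0.29 ± 0.06 SE, adjusted p = 0.0017). WRKY26 was thus above WRKY25 in all 3 ammonium nitrate libraries and below it in all 3 glutamate libraries. WRKY58 (AT3G01080), a restrainer of systemic resistance, had the largest rise of the group, from 0.809 ± 0.098 to 7.50 ± 0.342 RPKM, or 9.28-fold. WRKY3 and WRKY4 (AT1G13960), a related pair in defence against necrotrophs, went apart. WRKY3 fell from 20.6, 21.9 and 21.0 RPKM to 15.7, 15.2 and 16.6 RPKM, and WRKY4 rose from 20.2 ± 1.12 to 24.1 ± 1.05 RPKM (adjusted p = 2.5e-04 and 0.00576). WRKY1 (AT2G04880, ZAP1) rose 1.56-fold and WRKY2 (AT5G56270), which acts in seed germination and pollen, 1.84-fold. WRKY19 (AT4G12020), which joins a WRKY domain to a resistance protein, rose 1.53-fold. WRKY20 (AT4G26640) and WRKY32 (AT4G30935) rose by a log2 fold change of 0.29 and 0.19, and the call of WRKY32 was lost without either replicate 1 or replicate 3 of either group (adjusted p = 0.0505 to 0.106). WRKY44 (AT2G37260, TTG2), a regulator of trichomes and seed coat, was at 2.12 ± 0.0932 and 2.24 ± 0.0312 RPKM and was not called (95% interval of the log2 fold change -0.12 to 0.23).

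The remaining group I members were at the limit of detection. WRKY34 (AT4G26440), a pollen gene, had 0 reads in all 6 libraries, where a limit of 3 reads per library, for counting error only, corresponds to 0.0267 to 0.0371 RPKM. WRKY10 (AT1G55600, MINI3), which acts in seed growth, had 2 reads, both in glutamate replicate 1.

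In subgroup IIb, 6 of 7 members rose and WRKY42 (AT4G04450) was not called, with a median log2 fold change of 0.89. WRKY6 (AT1G62300), which acts in senescence and in phosphate transfer to the shoot, stood at 19.3, 19.5 and 16.9 RPKM on ammonium nitrate and at 35.3, 37.0 and 33.3 RPKM on glutamate, a 1.90-fold rise (log2 fold change 0.89 ± 0.07 SE, adjusted p = 8.7e-06). WRKY31 (AT4G22070) rose 3.40-fold, from 8.12 ± 0.564 to 27.6 ± 0.431 RPKM, and WRKY61 (AT1G18860) rose 3.35-fold, from 4.04 ± 0.382 to 13.6 ± 0.60 RPKM (SD, n = 3). WRKY36 (AT1G69810) rose 1.98-fold and WRKY9 (AT1G68150), linked to root suberin, 1.64-fold. WRKY47 (AT4G01720) was called at 15.9 ± 1.53 and 18.2 ± 0.336 RPKM (adjusted p = 0.038), a call that was lost without any 1 library but ammonium nitrate replicate 2 (adjusted p = 0.0652 to 0.103). That call was also lost when genes of all levels were tested. WRKY42, which like WRKY6 acts on the phosphate exporter gene PHO1, stood at 2.15, 2.20 and 1.84 RPKM on ammonium nitrate and at 1.51, 2.12 and 1.54 RPKM on glutamate. These values overlapped, with a 95% interval of the log2 fold change of -0.43 to 0.08, and without glutamate replicate 2 the gene was called lower (adjusted p = 0.0471).

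Subgroup IIc was divided: 7 of 11 tested members rose, 1 fell and 3 were not called. WRKY50 (AT5G26170) and WRKY51 (AT5G64810), which restrain jasmonate responses when salicylic acid is high, rose side by side. WRKY50 stood at 1.38, 1.15 and 1.06 RPKM on ammonium nitrate and at 19.1, 14.8 and 16.8 RPKM on glutamate (log2 fold change 3.02 ± 0.10 SE, adjusted p = 1.6e-07). WRKY51 stood at 3.56, 3.14 and 4.50 RPKM and at 38.7, 35.9 and 35.8 RPKM (log2 fold change 3.01 ± 0.10 SE, adjusted p = 1.6e-07). Neither gene's groups overlapped. WRKY8 (AT5G46350), of salt and virus responses, rose 8.54-fold, from 1.16 ± 0.318 to 9.87 ± 0.603 RPKM, and WRKY48 (AT5G49520), a restrainer of basal defence, 4.37-fold, from 2.77 ± 0.143 to 12.1 ± 0.297 RPKM (SD, n = 3). WRKY43 (AT2G46130) rose 4.02-fold. WRKY75 (AT5G13080) and WRKY45 (AT3G01970) both promote phosphate uptake. WRKY75, also a promoter of senescence, stood at 16.6, 14.9 and 14.0 RPKM and at 53.4, 54.0 and 54.4 RPKM. WRKY45 rose from 71.0 ± 6.00 to 112 ± 9.11 RPKM (SD, n = 3), or 1.58-fold.

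WRKY49 (AT5G43290) was the 1 WRKY gene that fell at least 2-fold. With a glutamate mean under 1 RPKM, it entered the test through its ammonium nitrate level, so its mean could only be lower on glutamate. It stood at 3.66, 4.94 and 4.19 RPKM on ammonium nitrate and at 0.365, 0.360 and 0.549 RPKM on glutamate, from 679 reads and 83 reads over the 3 libraries of each group. The ratio of means was 10.03-fold lower on glutamate (log2 fold change -1.88 ± 0.11 SE, adjusted p = 2.5e-06), and the groups did not overlap. The uncalled members of subgroup IIc were WRKY28 (AT4G18170), an activator of the salicylic acid synthesis gene ICS1, WRKY57 (AT1G69310), of drought tolerance and senescence, and WRKY23 (AT2G47260), of auxin-dependent root growth. WRKY28 stood at 4.47, 5.36 and 4.64 RPKM and at 5.03, 4.83 and 4.61 RPKM, with a 95% interval of the log2 fold change of -0.18 to 0.18. The intervals were -0.20 to 0.12 for WRKY57 and -0.26 to 0.24 for WRKY23. WRKY12 (AT2G44745) and WRKY13 (AT4G39410), a pair with opposite effects on flowering time, missed the level needed for the test, WRKY12 at 0.916 ± 0.304 and 0.786 ± 0.404 RPKM and WRKY13 at 1.02 ± 0.192 and 0.661 ± 0.184 RPKM (SD, n = 3).

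Subgroup IId, whose proteins bind calmodulin, held abundant genes that changed little, and none reached 2-fold. Of its 6 members 4 rose, 1 fell and 1 was not called, with a median log2 fold change of 0.16. WRKY15 (AT2G23320), of salt and oxidative stress responses, stood at 83.6, 75.5 and 84.7 RPKM on ammonium nitrate and at 141, 140 and 132 RPKM on glutamate, a 1.69-fold rise without overlap (log2 fold change 0.75 ± 0.06 SE, adjusted p = 8.2e-06). WRKY39 (AT3G04670), of heat tolerance, rose from 39.3 ± 0.758 to 45.8 ± 2.02 RPKM and WRKY21 (AT2G30590) from 23.0 ± 0.24 to 25.8 ± 0.315 RPKM (SD, n = 3). WRKY7, WRKY11 (AT4G31550) and WRKY17 (AT2G24570) restrain basal resistance to bacteria. WRKY7 fell from 37.2, 32.3 and 33.9 RPKM to 25.7, 22.7 and 24.1 RPKM (log2 fold change -0.49 ± 0.07 SE, adjusted p = 2.5e-04). WRKY11 was called at 36.1 ± 1.31 and 40.7 ± 2.54 RPKM (adjusted p = 0.0285), but the call was lost without ammonium nitrate replicate 1 or 2 or glutamate replicate 1 or 3 (adjusted p = 0.065 to 0.0964). That call was also lost when genes of all levels were tested (adjusted p = 0.0538). WRKY17 was at 22.4 ± 1.57 and 24.3 ± 1.46 RPKM and was not called (adjusted p = 0.154; adjusted p = 0.0151 with equal totals per library and 0.0499 without ammonium nitrate replicate 1).

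In subgroup IIe, 5 of 8 members rose, 1 fell and 2 were not called, with a median log2 fold change of 0.28. WRKY22 and WRKY29 (AT4G23550) both lie downstream of the MAP kinase cascade that answers bacterial flagellin, and their values went apart. WRKY29 stood at 24.5, 22.6 and 21.6 RPKM on ammonium nitrate and at 75.1, 78.3 and 72.2 RPKM on glutamate, a 3.28-fold rise (log2 fold change 1.67 ± 0.06 SE, adjusted p = 2.0e-07). WRKY22 stood at 14.6, 14.9 and 12.1 RPKM and at 12.9, 6.95 and 12.0 RPKM, and the groups overlapped (log2 fold change -0.39 ± 0.20 SE, adjusted p = 0.104). Without glutamate replicate 1 it was called lower (adjusted p = 0.0443). Without glutamate replicate 2, its lowest library, the log2 fold change was -0.14 (adjusted p = 0.229). WRKY65 (AT1G29280) rose from 69.7 ± 5.16 to 109 ± 1.99 RPKM and WRKY69 (AT3G58710) from 14.2 ± 2.31 to 21.5 ± 1.29 RPKM (SD, n = 3). WRKY69 overlaps a protein-coding gene on the opposite strand over 18.6% of its span and a long noncoding RNA gene over 17.2%. WRKY14 (AT1G30650) and WRKY16 (AT5G45050, TTR1), the latter joined to a resistance protein, rose by log2 fold changes of 0.32 and 0.24. WRKY27 (AT5G52830), which affects bacterial wilt symptoms, fell from 8.19 ± 0.498 to 6.97 ± 0.177 RPKM (SD, n = 3; adjusted p = 0.0193), and was not called with equal totals per library (adjusted p = 0.171) or without ammonium nitrate replicate 2 or 3 or glutamate replicate 3 (adjusted p = 0.0528 to 0.0667). WRKY35 (AT2G34830) was at 2.28 ± 0.267 and 2.67 ± 0.274 RPKM and was not called (95% interval of the log2 fold change -0.06 to 0.38).

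Close relatives were then compared within each library by the log2 ratio of (RPKM + 1), first gene over second. Of the 17 pairs with both members tested, 12 had ratios that did not overlap between the groups, where single genes tested did not overlap in 76.1% of cases. An exact permutation test of 3 against 3 cannot go below p = 0.1, or 0.142 when adjusted over the 17 pairs, so no ratio can pass. The mean ratio changed sign for 4 pairs. WRKY25 over WRKY26 was -1.04, -1.04 and -1.10 on ammonium nitrate and 0.90, 0.80 and 0.89 on glutamate. WRKY8 over WRKY28 was -1.53, -1.34 and -1.45 and then 0.90, 0.80 and 0.99. WRKY3 over WRKY4 went from a mean of 0.06 to -0.57, and WRKY38 over WRKY62 from -0.06, where both had few reads and single libraries lay on either side of 0, to 2.26. In other pairs 1 member gained on the other without a change of order. WRKY22 over WRKY29 went from a mean of -0.69 to -2.75, WRKY7 over WRKY15 from -1.21 to -2.46, WRKY45 over WRKY75 from 2.15 to 1.04 and WRKY6 over WRKY42 from 2.67 to 3.74. The ratios of WRKY50 over WRKY51, WRKY25 over WRKY33 and WRKY11 over WRKY17 overlapped, with differences between the group means of 0.02, 0.01 and 0.05. Those of WRKY18 over WRKY40 and WRKY22 over WRKY27 overlapped too, with larger differences of -0.74 and -0.19, glutamate minus ammonium nitrate.

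**Figure D4:**
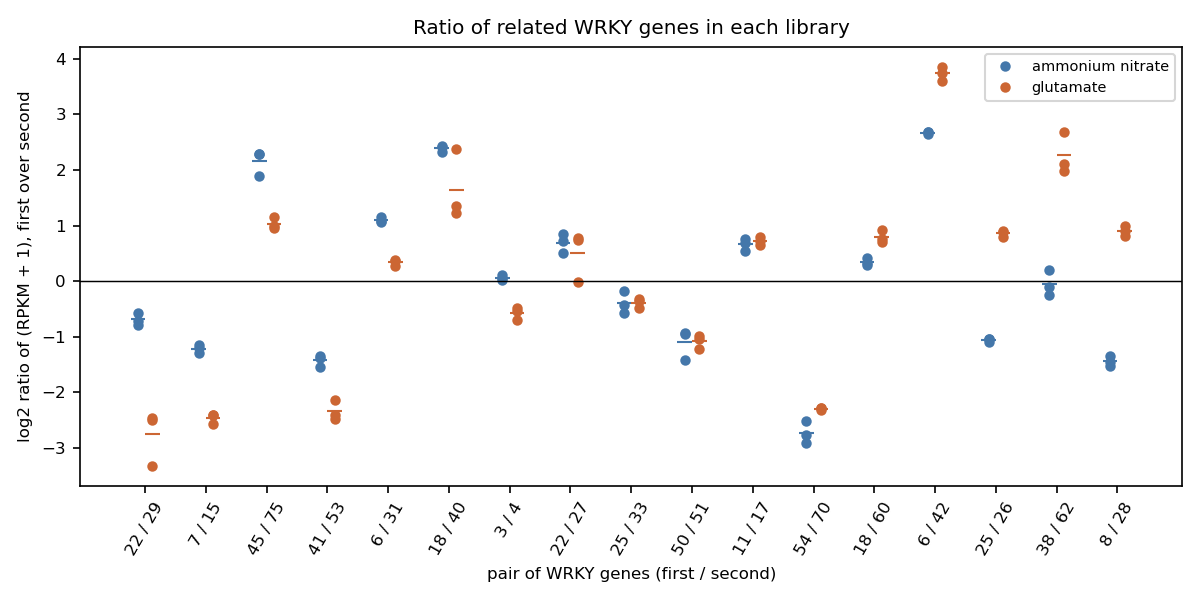
Log2 ratio of (RPKM + 1) of 17 pairs of related WRKY genes (x axis, numbers of the first and second gene) in each library, with short lines for the group means. WRKY25 over WRKY26 and WRKY8 over WRKY28 pass from below 0 on ammonium nitrate to above 0 on glutamate, and WRKY50 over WRKY51 overlaps.

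Genes that work with WRKY factors were taken from lists of partners, upstream kinases and described targets. Of the 30 VQ motif genes 25 were tested, and 19 rose, 2 fell and 4 were not called, with a median log2 fold change of 0.80. These and the counts of the kinase and target lists stand beside 35.0% higher and 36.8% lower over all genes tested. SIB1 (AT3G56710), a partner of WRKY33, rose from 3.71 ± 0.55 to 73.9 ± 13.4 RPKM (SD, n = 3), or 19.9-fold. The VQ motif genes AT1G78410 and AT4G20000 rose 7.20-fold and 6.24-fold, and JAV1 (AT3G22160), a repressor of jasmonate defence, 3.48-fold. Of 12 genes of the MAP kinase cascades, 10 rose and 2 were not called, with a median log2 fold change of 0.58. MPK11 (AT1G01560) rose from 1.59 ± 0.273 to 15.7 ± 1.52 RPKM, MKK1 (AT4G26070) 4.11-fold, MKK9 (AT1G73500) 3.26-fold and MKK2 (AT4G29810) 2.29-fold. MPK6 and MAPKKK3 were the uncalled members, MPK6 at 49.2 ± 2.94 and 45.4 ± 1.04 RPKM.

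Of 13 genes described elsewhere as targets of WRKY factors, 11 rose, 1 fell and 1 was not called, with a median log2 fold change of 1.83. FRK1, CYP71A13, ERF109, JAZ8 and ACS2 had an ammonium nitrate mean under 1 RPKM and entered the test through their glutamate level; of the other 8 genes, 6 rose, 1 fell and 1 was not called. FRK1 (AT2G19190), a receptor-like kinase gene driven by WRKY6 and by WRKY22 and WRKY29, rose from 0.921 ± 0.195 to 25.4 ± 1.66 RPKM, or 27.5-fold. The camalexin synthesis genes PAD3 (AT3G26830) and CYP71A13 (AT2G30770), described as targets of WRKY33, rose 12.3-fold and 69.6-fold, PAD3 from 9.47 ± 2.05 to 117 ± 15.5 RPKM (SD, n = 3). ICS1 (AT1G74710) rose 4.38-fold, from 3.02 ± 0.41 to 13.2 ± 0.124 RPKM, while its described activator WRKY28 was not called. The phosphate genes went otherwise. PHT1;1 (AT5G43350), described as a target of WRKY45 and WRKY75, fell from 61.7 ± 5.93 to 47.8 ± 3.34 RPKM (adjusted p = 0.00368), and some of its reads were shared with other genes. PHO1 (AT3G23430), described as repressed by WRKY6 and WRKY42, was at 61.4 ± 6.21 and 54.9 ± 2.17 RPKM and was not called (adjusted p = 0.0916).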

How the data were processed

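Total RNA of whole seedlings, 1 ug per sample, went into Illumina TruSeq libraries, per the labels' protocols. The authors deposited RPKM values scaled by TMM, per the file's name, for 33602 genes and 6 libraries. Per the submitters' processing notes, the build was TAIR10 and SAMtools was used; no aligner, counter or filter is stated. The deposited table also holds each gene's length and, by its name, the largest fraction of multiply mapped reads per gene, a fraction deposited by the authors.

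RPKM times length took steps of whole reads plus 0.5, within 0.05 read, for 100% of genes without multiply mapped reads, which gave the reads. Replicates differed by more than counting noise and none was a copy. Genes averaging 1 RPKM or more went into limma 3.58.1 (R 4.3.3), two-sided, as log2(RPKM + 1) under an intensity trend, and p was adjusted by Benjamini-Hochberg; the fit was tested on simulated data. Members, lists, pairs and the rule for named genes were chosen with earlier results of these data known. In each WRKY group the rule took the most abundant member, up to 3 largest rises and falls, the smallest change and the paired members. Some of their values are given as mean ± SD. In other lists the rule took up to 4 members of smallest p. MPK6, MAPKKK3, PHT1;1, PHO1, ERF109, JAZ8 and ACS2 were named outside this rule. Genome windows came from TAIR10.1 (RefSeq), and the group III windows with W boxes were picked after the search. Alternatives were other pseudocounts (0.1 and 5 RPKM), filters, equal totals per library, no trend, a replicate block, no multiply mapped genes and leaving out each library. Replicate numbers came from the labels, and same-numbered libraries did not deviate together (correlations of 0.105, 0.0481 and -0.0125). The window of 1 further member is not reported here.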

Additional observations from a re-analysis of the deposited data

How the results depend on the processing

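Of the 55 tested WRKY genes, 48 stayed on their side of the threshold in each of the 14 alternatives that gave them a value, and no called gene turned its direction. All 14 gave a value for 40 genes and 13 for the other genes. WRKY23, WRKY28 and WRKY57, never called and close to 0, changed sign in some alternatives, to at most 0.07, -0.04 and 0.06. The 7 others were WRKY11, WRKY17, WRKY22, WRKY27, WRKY32, WRKY42 and WRKY47. Their log2 fold changes were -0.39 to 0.19, and WRKY22, at -0.39, had an SE of 0.20. The cause of the changed calls was not tested. The number called higher was 37 to 44 and the number called lower 4 to 6. With the replicate block 42 were higher and 5 lower, as without it, and the block changed no call; since the numbers do not pair the libraries, this is given once. The median log2 fold change of 0.66 became 0.71 with a pseudocount of 0.1 RPKM, 0.61 with 5 RPKM, 0.71 among genes averaging 5 RPKM or more and 0.81 with equal totals per library, which raised the median of all genes tested from -0.02 to 0.08; leaving out 1 library gave 0.66 to 0.70. The difference in summed level, 987 RPKM, became 1091 RPKM with equal totals and 868 RPKM without genes with multiply mapped reads, because WRKY15 and 3 other members were left out, and leaving out 1 library gave 971 to 1014 RPKM. WRKY30, WRKY12 and WRKY13 were left untested by the filter on the mean, and the ratios of WRKY38 and WRKY62 rest on few ammonium nitrate reads.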
